A study of Mus musculus with 6 samples.

Results

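The genes described here sense DNA breaks, signal them and repair them. A list of 47 mouse genes was set by name. A gene was represented by the probe matched to it through a RefSeq accession, and of several matched probes by the brightest over all arrays. A probe was matched for 44 of the 47, among 19657 features tested, and Atr, Mdc1 and Palb2 are not analysed here for want of such a match. All 44 were well above background on all 6 arrays, so none entered through 1 group alone. The 44 genes had 71 probes, of which 70 passed the filter on dim probes.

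RNA was measured in mouse embryonic fibroblasts, connective tissue cells grown from embryos, on 1-colour Agilent arrays. The 3 knockout arrays (KO) carried RNA of cells without Rap1, the product of Terf2ip that binds telomeres through its partner Terf2, and the 3 wild-type arrays (WT) carried RNA of wild-type cells. Per the labels' protocols, cells of both groups received the SV40 large T antigen, which immortalises fibroblasts and inactivates p53 and the retinoblastoma protein, and Cre recombinase, and all grew in puromycin. Cre removes a floxed exon of Rap1, per the design text, so both groups share the virus-borne Cre and the viral oncogene. Whether a group's arrays stand for different embryos or different dishes is not in the labels. The p-values therefore cover the spread between these samples alone, which may be technical.

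A cell that suffers a double-strand break binds its ends with the MRN complex (Mre11a, Rad50 and Nbn), which activates the kinase Atm, while Atr answers single-stranded DNA at stalled forks. Both kinases mark the histone H2ax around the break and switch on Chek1 and Chek2, which hold the cell cycle. The ends are then joined directly by the Ku and Prkdc route or copied from the sister chromatid by homologous recombination, and the same machinery meets chromosome ends when telomeres lose their protein cover.

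Terf2ip itself, the gene deleted in the knockout, was read first as a check of the labels. Its level was -7.91, -9.08 and -8.11 on KO arrays 1, 2 and 3, against -1.75, -1.65 and -1.82 on WT arrays 1, 2 and 3. A level here is the log2 signal minus that of the array's 75th percentile, so a probe at 0 is as bright as that percentile. All 3 KO arrays lay far below all 3 WT arrays, and the probe was not well above background on any KO array. This leaves a bound of at least 37.7-fold lower in KO cells. The limma adjusted p of 0.00794 belongs to the fitted difference, which uses the KO values as read, and the bound itself was not tested. For the bound, each KO array was given the signal of its dimmest detected probe, or the Terf2ip probe's own where that was brighter, and the mean of these was set against the WT mean. Where the probe lies relative to the deleted exon was not looked up. The adjusted p ran between 0.0036 and 0.177 over the alternatives. It was 0.0653 with WT arrays 2 and 3 averaged and 0.0626 with slide as a block. Leaving out 1 array gave 0.0591 without KO array 1, 0.0561 without KO array 3, 0.0748 without WT array 2 and 0.0583 without WT array 3.

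The arrays themselves set the limits of what follows. Between 61.6% and 67.0% of the probes were well above background per array, and no spot was saturated. WT arrays 2 and 3 were nearly alike: the log2 difference between them had an SD of 0.25 over all features, against 0.83 to 1.25 for every other pair of arrays. Of 166 probes with repeated spots, 69 differed between them by over 3 times the error of those spots. That error leaves out labelling and hybridisation, so whether they share one RNA cannot be told from it. They were kept as 2 arrays, as the labels give them, and the counts below and the p-values of the genes nearest the threshold are also given with the pair averaged to 1 sample. Slide 1 held KO array 1 and WT array 1, and slide 2 the other 4 arrays. In SD of the log2 difference, WT array 1 was nearest to KO arrays 3 and 2 (0.83 and 0.94). WT arrays 2 and 3 were farther from WT array 1, at 1.01 or more. KO arrays 1 and 2 were each nearest to a KO array (1.08 and 0.89). Apart from the near-alike pair, the arrays thus did not group by genotype throughout. All 10 fibroblast markers looked up were above background on all 6 arrays, with a median difference of -0.56. They did not move as one: Thy1 was at -2.22, 1.92 and 1.99 on the KO arrays, against 3.79, 2.88 and 2.94 on the WT arrays, and Pdgfra at -1.48, 1.99 and 0.12, against 2.92, 2.43 and 2.40. Pdgfrb was highest on KO array 1 (4.56, 3.51 and 2.21 on the KO arrays, against 3.90, 2.30 and 2.28 on the WT arrays). Of markers of other cells, 5 of 6 epithelial, 1 of 5 leukocyte, 2 of 5 endothelial and 0 of 4 muscle markers were above background on all 6 arrays. Those above included Krt18 and Krt8 (differences of 1.53 and -1.74), Krt5, Krt14, Epcam, Cd14, Kdr and Vwf. Most of these were dim. Krt18 was at 0.80 to 3.67 over the 6 arrays and Cd14 at -0.84 to 0.71. Krt5 was at -6.34 to -5.36, Krt14 at -5.97 to -5.21 and Vwf at -5.95 to -4.82. Krt8, Epcam and Kdr were as low as -6.14, -6.28 and -5.82. Ptprc, Itgam, Pecam1, Cdh5, Myod1, Myog and Myf5 were not above background on any array. The part of these markers in the results below was not tested. In RNA of whole cultures, fewer cells of a kind and less RNA per cell cannot be told apart.

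No gene of break signalling and repair passed the test. Of the 44 measured, 0 rose, 0 fell and 44 did not pass at a limma adjusted p of 0.05, where 2 of the 19657 features (0.0102%) passed, both lower in KO cells. At an unadjusted p under 0.05 the count was 1 of 44 (H2ax, 2.27%), beside 10.3% of all features, and it was higher in KO. Of all features 5.61% were higher and 4.66% lower at that p. The differences, KO minus WT in log2 units, ran between -0.76 for Prkdc and 0.70 for Fancg, with a median of 0.14 beside 0.07 over all features. Of the 44 genes, 28 (63.6%) had a difference above 0 and 16 (36.4%) one below, beside 55.4% and 44.6% of all features. None was 2-fold apart, beside 10.2% of all features. The quartiles of the differences lay 0.51 apart for these genes and 0.69 apart over all features.

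**Figure D1:**
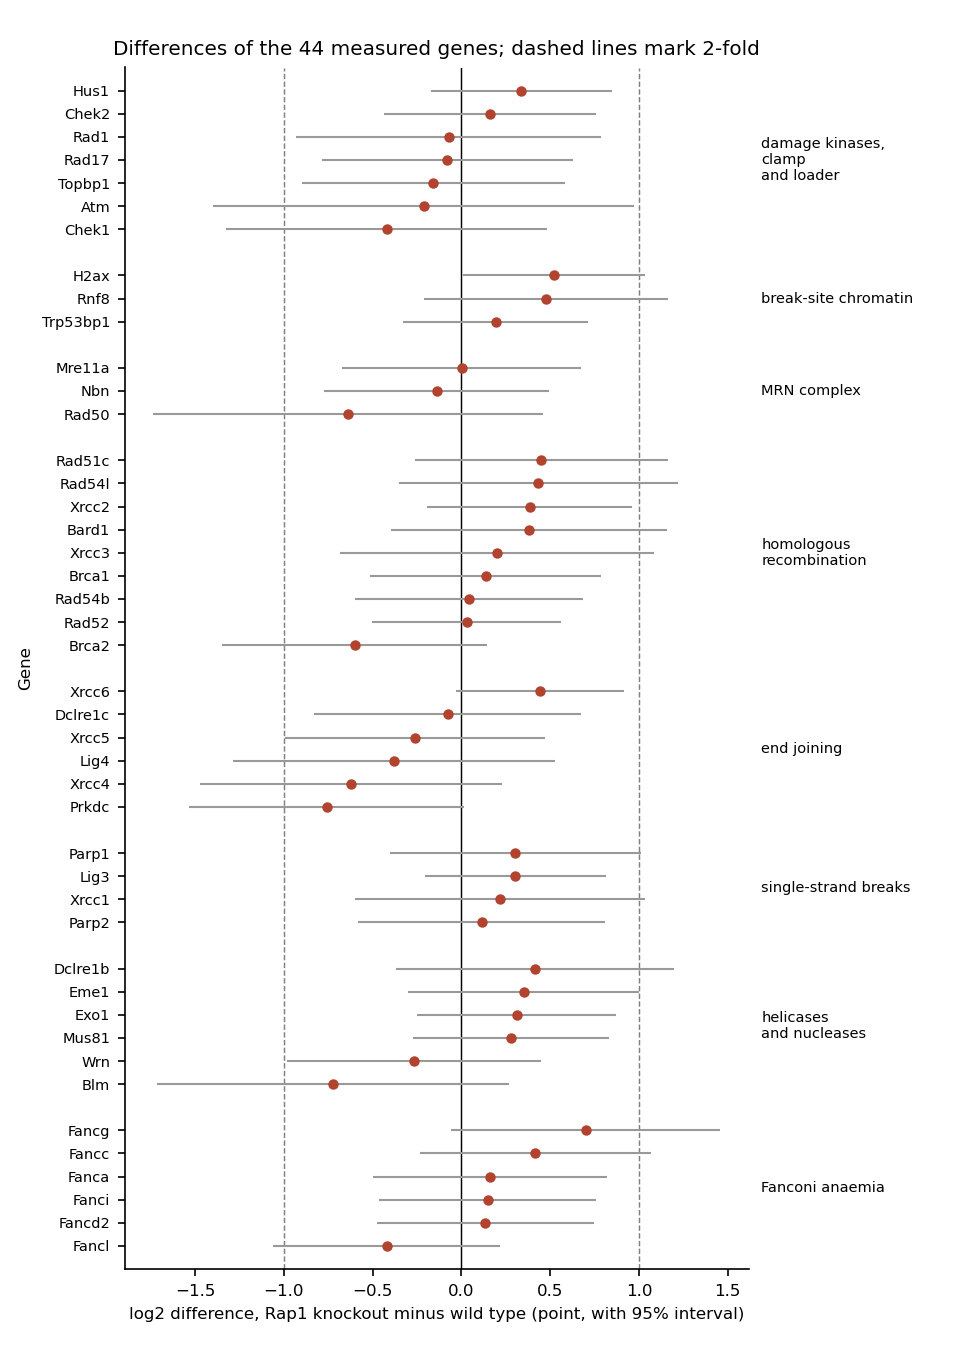
Log2 difference (KO minus WT) of each of the 44 measured genes, as a point with its 95% interval, grouped by role and ordered within a role by the difference. The solid line marks no difference and the dashed lines 2-fold either way: every point lies between the dashed lines, 24 of 44 intervals do so whole, and that of H2ax alone does not cross the solid line.

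A p above the threshold does not show that 2 groups are alike, so the intervals were read as well. The 95% interval of the difference lay whole inside 2-fold either way for 24 of 44 genes (54.5%), beside 38.6% of all features. With WT arrays 2 and 3 averaged to 1 sample this held for 5 of 44 genes (11.4%), beside 16.7% of all features. Without WT array 2 it held for 5 genes (11.4%, beside 16.5% of all features), and without WT array 3 for 3 (6.82%, beside 16.3%). The differences themselves moved less, with a median of 0.19 under the averaging and the largest at 0.71 (Fancg). How many of these genes have a 2-fold change bounded thus depends on whether the near-alike WT arrays count as separate samples. It depends on the processing too. With normexp background correction and quantile normalisation the interval lay inside 2-fold for 32 genes (72.7%, beside 66.8% of all features). With median scaling that held for 16 (36.4%, beside 28.5%).

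For 5 of the 44 genes (11.4%) all 3 KO arrays lay above all 3 WT arrays, beside 11.4% of all features. These were H2ax, Xrcc6, Fancg, Hus1 and Lig3, each on the probe used. On their other probes the groups of Hus1 and Lig3 overlapped. For 0 genes did all KO arrays lie below all WT arrays, beside 5.89% of all features. The counts were again 5 and 0 with WT arrays 2 and 3 averaged, beside 12.6% and 6.53% of all features. The unadjusted p in limma with that pair averaged was 0.123 for H2ax, 0.190 for Xrcc6, 0.134 for Fancg, 0.334 for Hus1 and 0.435 for Lig3. The counts depend on single arrays, and so do the shares of all features. Without WT array 1, 10 and 7 genes were separated, beside 26.4% and 19.3% of all features. Without KO array 3 the counts were 16 and 8 (26.3% and 15.9% of all features), without KO array 1 they were 8 and 1 (15.5% and 9.89%), and without KO array 2 they were 7 and 2 (17.2% and 11.7%).

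**Figure D2:**
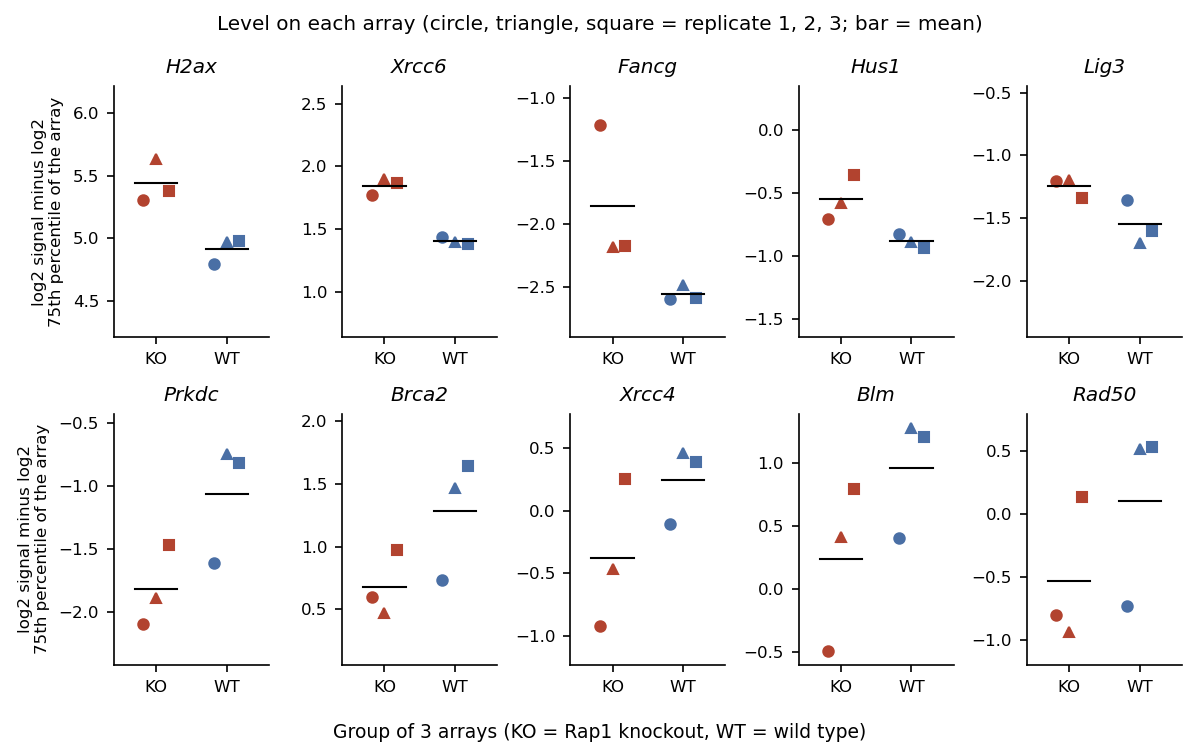
Level of 10 genes on each array (log2 signal minus log2 of the array's 75th percentile), KO left and WT right, with a bar at each group's mean and every vertical axis 2 log2 units tall. The upper row holds the 5 genes whose groups do not overlap, all higher in KO, and the lower row the 5 genes of lowest difference, where WT array 1 (circle) lies nearer to the KO arrays than WT arrays 2 and 3 do.

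Among the chromatin factors that mark a break, 3 of 4 were measured and all 3 had differences above 0. H2ax, listed under its older symbol H2afx, encodes the histone variant that is phosphorylated around breaks. Its level was 5.31, 5.63 and 5.37 on KO arrays 1, 2 and 3, against 4.80, 4.97 and 4.98 on WT arrays 1, 2 and 3. The lowest KO array stood above the highest WT array, and the difference of 0.52 (SE 0.21, 95% interval 0.01 to 1.04, unadjusted p = 0.048, limma adjusted p = 0.486) was of like size on slide 1 (0.51) and slide 2 (0.53). After normexp with quantile normalisation, quantile normalisation alone and in the value table its difference was 0.35, 0.32 and 0.35, with an unadjusted p above 0.05 in each. Rnf8, the ubiquitin ligase that follows phosphorylated H2ax, was at 1.45, 1.35 and 0.61 on the KO arrays, against 0.79, 0.62 and 0.56 on the WT arrays. KO array 3 fell among the WT arrays. Trp53bp1, which shields broken ends from resection, had a difference of 0.19 with an interval of -0.33 to 0.71.

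Of the damage kinases, their clamp and its loader, 7 of 8 were measured, and 5 of the 7 had differences below 0 (median -0.08). Hus1, a subunit of the ring-shaped clamp loaded beside damaged DNA, was at -0.71, -0.58 and -0.35 on the KO arrays, against -0.82, -0.89 and -0.94 on the WT arrays. All KO arrays lay above all WT arrays, by a small step (difference 0.34, SE 0.21, limma adjusted p = 0.537). On the other probes of Hus1 the groups overlapped, with differences of 0.12 and 0.14. Rad1, another subunit of the clamp, had a difference of -0.07, and Rad17, which loads the clamp, one of -0.08.

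Atm, the kinase that answers double-strand breaks, was among the genes that varied most between KO arrays. Its level was -2.80, -2.45 and -0.89 on KO arrays 1, 2 and 3, against -1.86, -1.71 and -1.93 on the WT arrays. KO arrays 1 and 2 stood below every WT array and KO array 3 above, so the mean difference of -0.21 (interval -1.40 to 0.97) stands for none of the 3. The Atm probe is printed in 10 spots, 9 of them usable on WT array 1, whose log2 signals had an SD of 0.049 to 0.081 within an array. Its lowest and highest array lay 1.91 log2 units apart, and the spot SD covers neither labelling nor hybridisation. Chek1, which halts the cycle downstream of Atr, was at -0.93, -0.41 and 0.44 on KO arrays 1, 2 and 3, against -0.14, 0.28 and 0.21 on the WT arrays. KO arrays again fell on both sides of the WT arrays. Chek2, its counterpart downstream of Atm, had a difference of 0.16, and Topbp1, which activates Atr, one of -0.16.

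**Figure D3:**
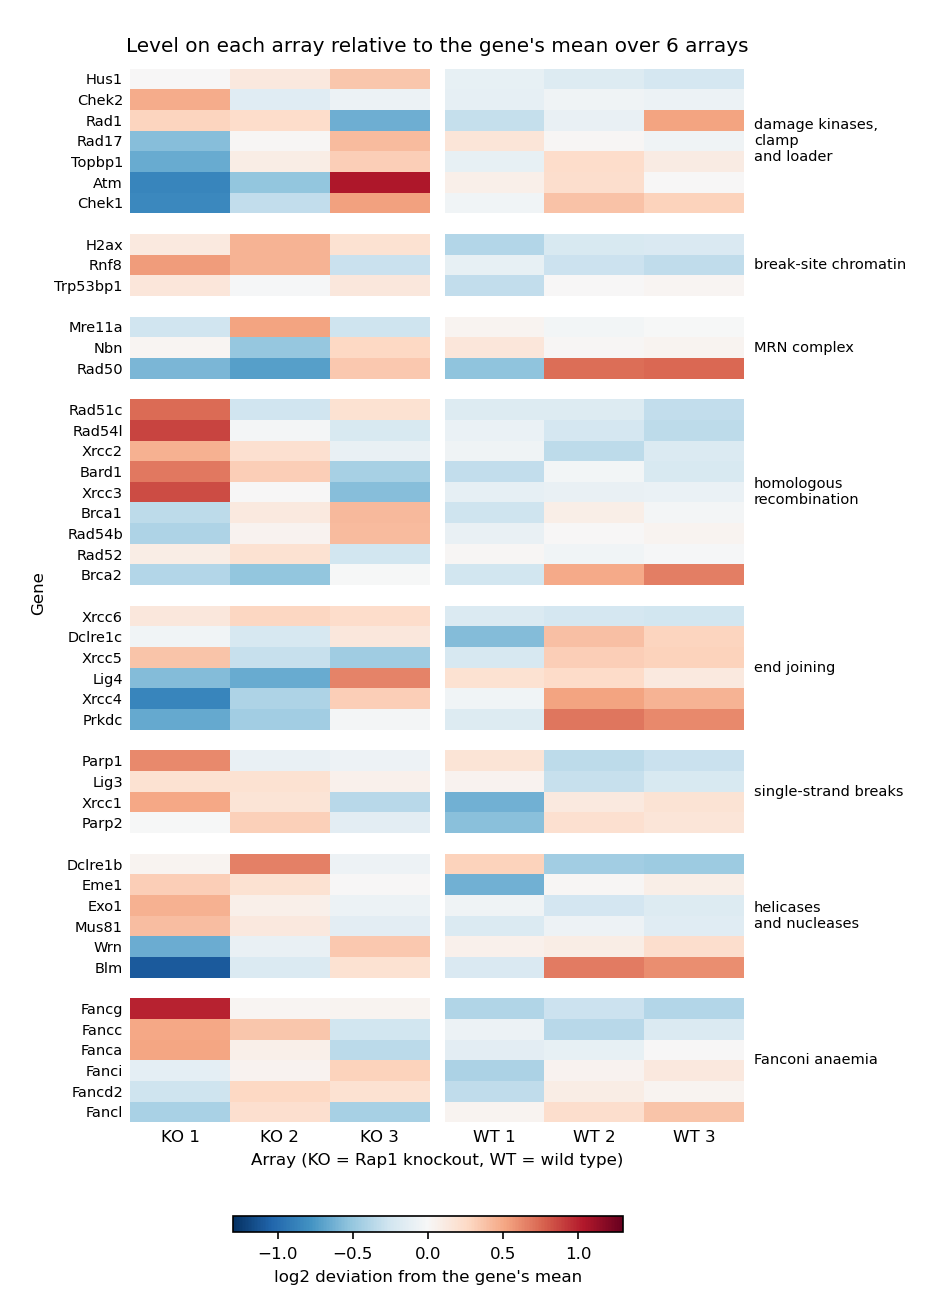
Level of each of the 44 genes on each array, as the log2 deviation from the gene's own mean over 6 arrays (red above, blue below), KO arrays left and WT arrays right, grouped by role. The KO columns hold the strongest colours, with KO array 1 the highest array for 17 genes and the lowest for 10, while the columns of WT arrays 2 and 3 are nearly alike.

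KO array 1 stood apart for these genes as it did over all features: it was the highest or lowest of the 6 arrays for 27 of 44 genes (61.4%), beside 54.4% of all features. The 10 genes lowest on it were Atm, Chek1, Topbp1, Rad17, Brca1, Rad54b, Xrcc4, Prkdc, Blm and Wrn. The 17 highest on it included 5 of homologous recombination (Bard1, Rad51c, Rad54l, Xrcc2 and Xrcc3) and 3 of the Fanconi anaemia pathway (Fanca, Fancc and Fancg). KO array 3 was the highest for 11 genes, and 7 of these were among the 10 lowest on KO array 1. The SD within a group was larger in KO than in WT for 33 of 44 genes, with medians of 0.40 and 0.14, and over all features the medians were 0.43 and 0.25. The WT SD rests on an array and a near-alike pair.

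The MRN complex, which tethers broken ends, was measured whole. Rad50, its structural arm, was at -0.80, -0.93 and 0.14 on KO arrays 1, 2 and 3, against -0.73, 0.52 and 0.53 on WT arrays 1, 2 and 3. WT array 1 lay among the KO arrays, and the difference of -0.64 had an interval of -1.74 to 0.46. It was -0.07 on slide 1 and -0.92 on slide 2. Mre11a, the nuclease, was at 1.92, 2.70 and 1.91 on the KO arrays, against 2.21, 2.14 and 2.17 on the WT arrays, with equal group means (difference 0.00, SE 0.28). Nbn, which brings Atm to the complex, had a difference of -0.14, with -0.13 on slide 1 and -0.14 on slide 2. On slide 2 its KO arrays lay on both sides of the WT arrays, at 2.28 and 3.05 against 2.80 and 2.82.

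Of the homologous recombination genes, 8 of the 9 measured had differences above 0 and Brca2 had one below (median 0.20). Brca2, which acts on the resected single-stranded DNA, was at 0.60, 0.47 and 0.97 on KO arrays 1, 2 and 3, against 0.74, 1.47 and 1.64 on WT arrays 1, 2 and 3. WT arrays 2 and 3 stood above all KO arrays and WT array 1 did not (difference -0.60, SE 0.31, limma adjusted p = 0.507, and -0.46 with an unadjusted p of 0.272 when WT arrays 2 and 3 are averaged). Brca1, its partner in recombination, had a difference of 0.14 and Bard1, which pairs with Brca1, one of 0.38. Rad51c, a recombination mediator, was at -0.44, -1.43 and -0.97 on the KO arrays, against -1.35, -1.35 and -1.50 on the WT arrays. KO array 2 lay among the WT arrays. Xrcc2 and Xrcc3, mediators of the same kind, had differences of 0.38 and 0.20, and the DNA translocases Rad54l and Rad54b of 0.43 and 0.04. Rad52, an annealing factor, was the least variable of these genes, with 0.45 log2 units between its lowest and highest array and a difference of 0.03.

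In end joining, which ligates ends without a template, 5 of the 6 genes had differences below 0 (median -0.32) and Xrcc6 one above. Xrcc6 encodes Ku70, a subunit of the ring that first grips a DNA end. Its level was 1.77, 1.90 and 1.87 on the KO arrays, against 1.44, 1.40 and 1.38 on the WT arrays. The arrays of each group lay close together and the groups did not overlap (difference 0.44, interval -0.03 to 0.92, limma adjusted p = 0.495). Xrcc5, which encodes the Ku partner of Xrcc6, was at 2.54, 1.88 and 1.72 on KO arrays 1, 2 and 3, against 1.96, 2.49 and 2.47 on WT arrays 1, 2 and 3. The 2 subunits of the Ku ring did not go the same way on slide 2, where Xrcc6 differed by 0.50 and Xrcc5 by -0.69, while on slide 1 both were higher in KO, by 0.33 and 0.58.

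Prkdc, the catalytic subunit of the kinase that Ku recruits, had the lowest difference of the 44 genes. It was at -2.10, -1.89 and -1.47 on KO arrays 1, 2 and 3, against -1.62, -0.75 and -0.82 on WT arrays 1, 2 and 3. Only KO array 3 lay above the lowest WT array (difference -0.76, interval -1.53 to 0.01, unadjusted p = 0.053 and limma adjusted p = 0.489). With WT arrays 2 and 3 averaged the difference was -0.62 and the unadjusted p in limma 0.169. Its probe is printed in 10 spots too, with an SD of 0.042 to 0.081 within an array. It was lower in KO on both slides, with differences of -0.48 on slide 1 and -0.90 on slide 2. Xrcc4, which holds the ligase Lig4 at the ends, was at -0.92, -0.47 and 0.26 on the KO arrays, against -0.11, 0.46 and 0.39 on the WT arrays. KO array 3 again lay among the WT arrays. Lig4 was at -1.32, -1.42 and -0.12 on KO arrays 1, 2 and 3, against -0.57, -0.52 and -0.64 on the WT arrays, so KO array 3 lay above all WT arrays and the other 2 KO arrays below them. Dclre1c, the nuclease that opens hairpin ends, had a difference of -0.08.

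The single-strand break genes all 4 had differences above 0 (median 0.26), none past the test. Lig3, the ligase of this route, was at -1.20, -1.20 and -1.34 on the KO arrays, against -1.35, -1.70 and -1.60 on the WT arrays. The groups did not overlap, though KO array 3 and WT array 1 almost touched, and its second probe gave a difference of 0.01 where this one gave 0.30. Parp1, which detects strand breaks, was at 3.17, 2.45 and 2.48 on the KO arrays, against 2.73, 2.21 and 2.26 on the WT arrays. Both arrays of slide 1 were higher than those of slide 2, and within each slide KO stood above WT (0.44 and 0.24). Without KO array 1 its difference was 0.070, against 0.30 with it. Its relative Parp2 had a difference of 0.11, and the scaffold Xrcc1 one of 0.22, with 1.13 on slide 1 and -0.24 on slide 2.

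Among helicases and nucleases that process branched DNA, 4 of 6 had differences above 0. Blm, the helicase that unwinds recombination intermediates, was at -0.49, 0.41 and 0.80 on KO arrays 1, 2 and 3, against 0.40, 1.28 and 1.21 on WT arrays 1, 2 and 3. KO arrays 2 and 3 lay above WT array 1, so the groups overlap, yet within each slide KO stood below WT, with differences of -0.90 on slide 1 and -0.64 on slide 2. The overall difference was -0.72 and, without KO array 1, -0.36. With slide as a block Blm had an unadjusted p of 0.014 in limma, beside 17.7% of all features under 0.05. Wrn, a helicase of the same family, had a difference of -0.27, which was -0.0084 without KO array 1. Dclre1b, the nuclease also called Apollo that trims telomere ends, was at -2.06, -1.45 and -2.17 on the KO arrays, against -1.80, -2.56 and -2.57 on the WT arrays. It differed by -0.26 on slide 1 and 0.76 on slide 2 (overall difference 0.42, interval -0.37 to 1.20). Exo1, which resects ends, and Eme1 and Mus81, which form one nuclease, had differences of 0.31, 0.35 and 0.28.

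The Fanconi anaemia pathway removes crosslinks between DNA strands, and 5 of its 6 genes had differences above 0 (median 0.15). Fancg, a core complex subunit, was at -1.21, -2.18 and -2.18 on KO arrays 1, 2 and 3, against -2.60, -2.49 and -2.59 on the WT arrays. It had the highest difference of the 44 genes (0.70, SE 0.32, limma adjusted p = 0.497). On this probe KO array 1 carried most of it: 1.38 on slide 1 and 0.36 on slide 2, and 0.38 without KO array 1. The dimmer second probe of Fancg did not share that pattern. It read -3.85, -3.93 and -3.96 on KO arrays 1, 2 and 3, against -4.39, -5.16 and -4.76 on the WT arrays (difference 0.85). Fancl, the ubiquitin ligase of the core, was at 0.43, 1.06 and 0.41 on the KO arrays, against 0.88, 1.08 and 1.21 on the WT arrays. KO array 2 overlapped WT, and the difference of -0.42 was alike on both slides (-0.45 and -0.41). On the second probe of Fancl the groups did not overlap. It read -0.81, -0.32 and -0.68 on KO arrays 1, 2 and 3, against -0.10, -0.10 and 0.01 on the WT arrays (difference -0.54). Fanca and Fancc, of the core, differed by 0.16 and 0.42, and Fancd2 and Fanci, the pair that Fancl modifies, by 0.13 and 0.15.

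**Figure D4:**
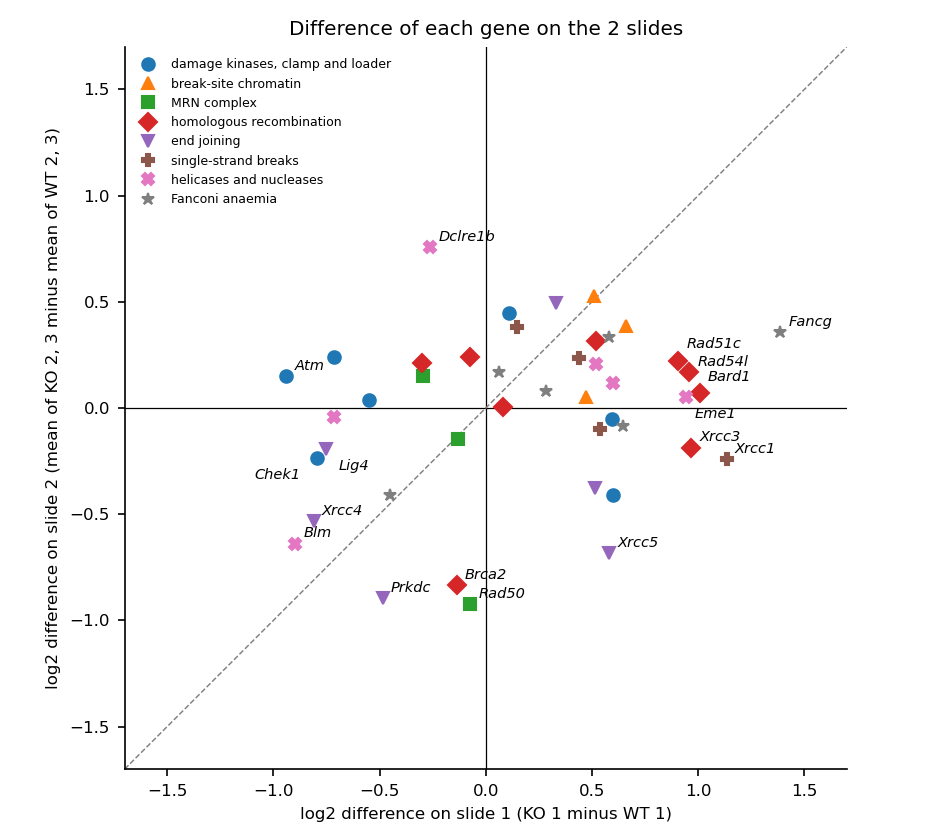
Log2 difference of each gene on slide 1 (KO array 1 minus WT array 1, horizontal) against that on slide 2 (mean of KO arrays 2 and 3 minus mean of WT arrays 2 and 3, vertical), with a symbol for each role and the dashed line at equality. Points in the upper right and lower left share a sign on both slides (29 of 44), Fancg lies farthest right at 1.38, and Rad50 lowest at -0.92.

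Within slides the differences shared a sign for 29 of 44 genes (65.9%), beside 60.6% of all features, and 15 genes went opposite ways. The median was 0.31 on slide 1 and 0.06 on slide 2, beside 0.15 and 0.05 over all features. Of the 7 kinase, clamp and loader genes only 2 shared a sign, Hus1 above 0 and Chek1 below 0. All 3 chromatin factors did so above 0. On slide 2 alone, where 2 KO arrays met the 2 near-alike WT arrays, 5 genes had an unadjusted p under 0.05 in limma (Xrcc6 higher; Blm, Brca2, Prkdc and Xrcc5 lower), which is 11.4%, beside 22.2% of all features. With slide as a block the count was also 5, beside 17.7% of all features (Fancg, H2ax and Xrcc6 higher; Blm and Prkdc lower), and no gene passed after adjustment in either fit. The lowest adjusted p was 0.147 on slide 2 and 0.204 with the block.

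Several values turned on single arrays. Without WT array 1, Rad50, Prkdc and Blm were at least 2-fold apart, with differences of -1.06, -1.04 and -1.01, and the lowest limma adjusted p of any of the 44 was 0.176. Without KO array 3, 9 genes had an unadjusted p under 0.05 beside 19.7% of all features: Bard1, Fancc, H2ax and Rnf8 higher, and Atm, Chek1, Lig4, Prkdc and Xrcc4 lower. The count was 3 without WT array 1 (18% of all features), 2 without KO array 2 (10.1%), 1 without KO array 1 (8.24%), and 0 without WT array 2 (3.56%) or without WT array 3 (3.55%).

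Leaving out 1 array also moved the differences of several genes by over 1.5 times. Without KO array 1, Blm stood at -0.36, Chek1 at -0.11, Wrn at -0.0084, Parp1 at 0.070, Rad51c at 0.20 and Fancg at 0.38, each nearer to 0. Without KO array 3, Chek1 stood at -0.79, Wrn at -0.51 and Rad50 at -0.98. Without KO array 2, Dclre1b stood at 0.19, Rad51c at 0.69 and Fancl at -0.64. Without WT array 1, Dclre1b stood at 0.67, Parp1 at 0.47 and Trp53bp1 at 0.082, and without WT array 3 Rad50 stood at -0.42.

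Different probes of one gene measured the same arrays and so are no replicates, but they show how far a value depends on the probe. For 24 genes with several probes, the difference had the same sign in all probes of 23, and the exception was Rad52 (-0.01 and 0.03). The median gap between the lowest and the highest probe of a gene was 0.07 log2 units. It was 0.36 for Brca2 (-0.60 and -0.24), 0.29 for Lig3, and 0.22 each for Wrn, Mre11a and Hus1. The 2 probes of Xrcc4 gave -0.63 and -0.62, and the probes of Fancg 0.70 and 0.85.

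**Figure D5:**
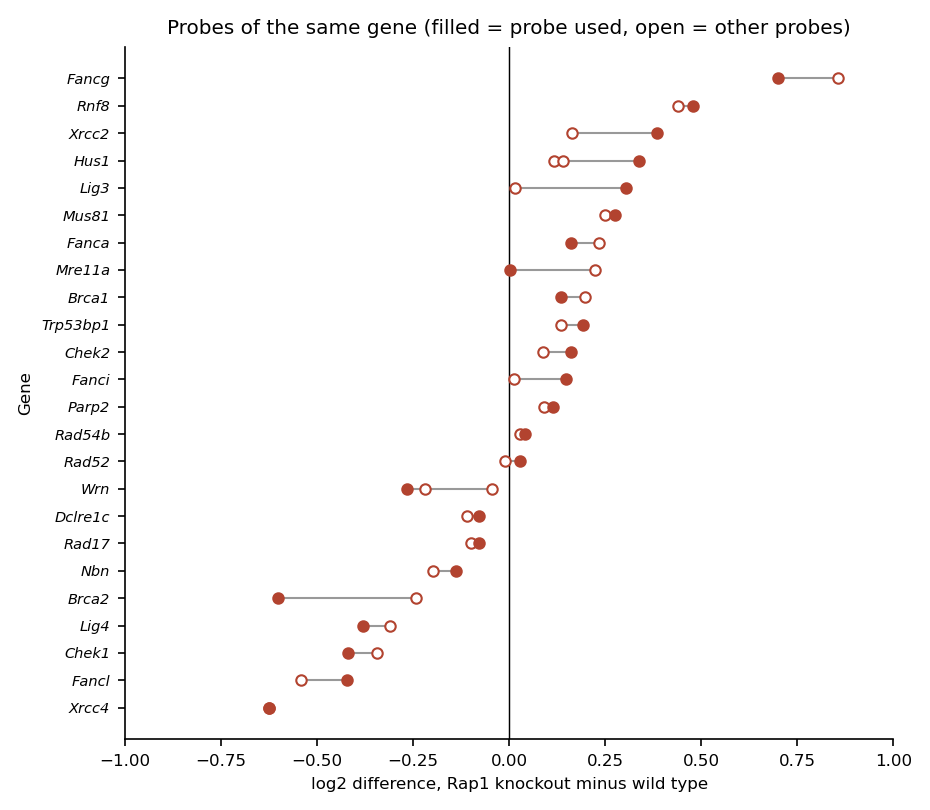
Log2 difference (KO minus WT) of every kept probe for the 24 genes with more than 1, with the probe used filled and the others open, joined by a line. Most pairs lie close together (median gap 0.07), and the longest line is that of Brca2 (0.36).

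Other genes of the same pathways did not pass the test either. Of 54 listed, 48 were measured, 0 rose, 0 fell and 48 did not pass. Their median difference was 0.20, and 32 of 48 lay above 0. At an unadjusted p under 0.05 in limma there were 2 (4.17%, beside 10.3% of all features), both higher in KO (beside 5.61%). Recql4, a helicase related to Blm and Wrn, was at 1.32, 0.80 and 0.66 on KO arrays 1, 2 and 3, against 0.41, 0.01 and -0.09 on the WT arrays (difference 0.82, SE 0.28, limma adjusted p = 0.474). Poll, a polymerase that fills gaps in end joining, was at 2.62, 2.63 and 2.29 on the KO arrays, against 1.91, 1.90 and 1.88 on the WT arrays (difference 0.62, SE 0.21, the same adjusted p). In both genes the lowest KO array stood above the highest WT array. In all, 7 genes (14.6%, beside 11.4% of all features) had every KO array above every WT array. For 1 (Usp1, 2.08%, beside 5.89%) every KO array lay below.

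Many repair genes follow the cell cycle, so genes of proliferation were read beside them. Of 19 listed, 18 were measured and 0 passed. Their median difference was 0.36, and 15 of 18 lay above 0. In 5 of them (27.8%, beside 11.4% of all features) all KO arrays stood above all WT arrays, and 17 of 18 shared a sign on both slides. Ccne1, the cyclin of S-phase entry, and Birc5, a mitotic factor, had the highest differences, 0.70 and 0.65 (limma adjusted p = 0.474 and 0.486). The 3 below 0 were Bub1 (-0.35), Top2a (-0.17) and Mcm4 (-0.01). At an unadjusted p under 0.05 in limma there were 2 of 18 (11.1%, beside 10.3% of all features). The part of proliferation genes in the differences of the repair genes was not tested.

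Cell-cycle genes are often driven by E2F factors, whose binding motif TTNGCGC was searched on both strands in the RefSeq promoter windows (250 bases before to 50 after each start, build GRCm38.p6). Windows existed for 35 of the 44 genes. The motif lay in 5 of the 35 (14.3%), beside 12.5% of the 9502 tested genes with a window. The 5 genes are printed to show the letters matched, with the gene's own strand 5′ to 3′ and the motif in capitals. It reads as its reverse complement where it lies on the opposite strand.
Brca1 chr11:101551918-101551944, minus strand: ctagcgctagGCGCCAAgcggccggtt
Chek2 chr5:110839979-110840005, plus strand: atccgtaggtTTAGCGCcactccactg
Lig4 chr8:9977745-9977771, minus strand: cctcccgggaGCGCGAAgccaacctgt
Rad51c chr11:87405006-87405032, minus strand: gcgcgcgtggGCGCCAAccactcccta
Topbp1 chr9:103305185-103305211, plus strand: gtccgctcggTTGGCGCgaaagtcggt
Rad51c holds a second match in another window, and in Topbp1 the letters after the motif match on the opposite strand too, overlapping it. The differences of these 5 genes were 0.14, 0.16, -0.38, 0.45 and -0.16 in the order printed, with a median of 0.14 beside 0.18 for the 30 genes without the motif. The cell-cycle element TTTGAA lay in 4 of 35 (11.4%), beside 14.2% of tested genes, and the box CCAAT in 14 of 35 (40.0%), beside 43.3%. Both were also searched on both strands, and overlaps between matches of different motifs were not counted. A match is a run of letters and not a measured site.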

How the data were processed

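Total RNA of 3 Rap1 knockout and 3 wild-type samples was labelled with Cy3 for Agilent arrays, per the labels' protocols. Per the file headers, spot intensity in the scanner files came out of Agilent Feature Extraction 10.5.1.1: the processed signal, which that software corrects for background, with the median signal, local background and flags. A value table that the authors deposited gives log2 values for these arrays. The submitters' processing notes name limma, and no source used here states how the log2 values were made. Their scale is log2, since each column followed quantile-normalised normexp scanner signals (r = 0.99999, column medians 6.86 to 6.87), with no centring of genes. The columns labelled knockout 1, 2 and 3 held the values of the scanner files labelled knockout 2, 3 and 1. Groups are unaffected, and replicate numbers and slides here are those of the scanner files.

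Control spots and spots marked as outliers were left out, and spots of a probe were averaged over those left (108 of 41174 probes lack a value on some array, none used for a gene described here). Values were log2 processed signal minus each array's 75th percentile. A probe passed the filter when every array of KO, of WT or of both flagged it well above background. Names came from RefSeq accessions looked up, versions dropped, in a GRCm38.p6 gene table (23374 probes matched, 17800 kept the file's name). Since the files' build is mm8, that table gave names only. The brightest kept probe by its mean stood for a gene. Groups were compared with limma 3.58.1 in R 4.3.3 (lmFit, eBayes, 2-sided, Benjamini-Hochberg over 19657 features), with no block. The fit was tested on simulated data. Precision is limited by having 6 arrays. Normexp (offset 50) had been planned for mean spot signals and ran on median ones, which the files used here hold. Alternatives were other scalings, the value table, other filters and probe rules, another variance model, slide and replicate blocks, slide 2 alone, WT arrays 2 and 3 averaged, and each array left out.

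Genes named by rule were Terf2ip, those past a threshold, in each role the gene of smallest p and those of highest and lowest difference, and the 5 whose probes differ most. Of these, Trp53bp1, Parp2 and Wrn are given without the level on each array. Atm, Rnf8, Xrcc4, Xrcc5, Lig4 and Usp1 were described after their values were seen. The members and all lists were chosen with earlier results of these data known.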

Additional observations from a re-analysis of the deposited data

How the results depend on the processing

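No gene of the 44 passed the adjusted threshold under any of the 18 alternatives. Among them, normexp with quantile normalisation and the value table hold nearly the same values (r = 0.99999). Their like results below are therefore no separate support. At an unadjusted p under 0.05 in limma the count was 1 with the settings reported. It was 3 (Hus1, Xrcc6 and Prkdc, without H2ax) with normexp and quantile normalisation and with the value table, 0 with quantile normalisation alone, with no filter on dim probes and with WT arrays 2 and 3 averaged, 2 with probes above background on all 6 arrays, with the mean of a gene's probes, with a trended robust variance and with the replicate block, and 5 with slide as a block and on slide 2 alone. Leaving out 1 array gave 0 to 9 genes. The share of all features was 3.52% with the pair averaged, 22.2% on slide 2 alone, 17.7% with the slide block and 6.32% to 12% under the others that keep all arrays. The median difference, 0.14 as reported, was 0.058 with each of normexp, quantile normalisation and the value table, 0.247 with median scaling and 0.061 on slide 2 alone, and 0.028 to 0.21 with 1 array left out. Median scaling moved the median of all features to 0.17 from the 0.07 reported, and no filter moved it to -0.08. The count of intervals inside 2-fold was 5 with WT arrays 2 and 3 averaged, beside 16.7% of all features. It was 32 with normexp and with the value table (66.8% of all features) and 16 with median scaling (28.5%). With no filter on dim probes it was 19 (34.3%), and with the replicate block it was 20 (33%). It was 3 to 30 with 1 array left out, beside 16.3% to 43.4%. Groups did not overlap for 3 genes higher and 1 lower with the mean of probes, beside 11.5% and 5.9% of all features. On slide 2 alone the counts were 14 and 9, beside 32% and 25.8%. With 1 array left out they were 5 to 16 and 0 to 8, beside 12.2% to 26.4% and 6.38% to 19.3%. Leaving out 1 array put 0 to 3 genes at least 2-fold apart.

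Over all features 2 passed as reported, and 4 with the mean of a gene's probes and 302 on slide 2 alone. The count was 0 with probes above background on all 6 arrays, with the replicate block, with slide as a block and with WT arrays 2 and 3 averaged, where 1779, 2354, 3483 and 691 had an unadjusted p under 0.05 in limma, and 0 to 64 with 1 array left out. Terf2ip was no longer past the threshold at -6.63 with the replicate block or the slide block and at -6.62 with the pair averaged, and lay at -6.86 to -6.27 with 1 array left out. Its probe was below background on all KO arrays, so these differences rest on the floor, as the -2.62 with normexp and -2.64 with the value table show, and only the bound of at least 37.7-fold is a measure. Of the 18 repair genes named by rule, 16 kept their sign throughout, Wrn among them though at -0.0084 without KO array 1. Mre11a turned to -0.069 with normexp, -0.067 with the value table, -0.10 with quantile normalisation and -0.0081 with the pair averaged (-0.26 to 0.13 with 1 array left out), and Parp2 to -0.10 on slide 2 alone (-0.13 to 0.25). The cause was not tested. Deviations from the group means had r of 0.01, 0.05 and -0.08 between the KO and WT arrays of number 1, 2 and 3. These r cannot tell whether arrays of a number were paired, since each group has 3 arrays and WT arrays 2 and 3 are near-alike. Arrays of the same number also share a slide.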
